A study of Mus musculus with 22 samples.

Results

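Peaks of open chromatin at the ends of long noncoding RNA (lncRNA) genes were examined across mouse male germ cells. A peak was a member if it lay on chromosomes 1 to 19 within 1000 bp of either annotated end of a RefSeq lncRNA gene (assembly GRCm38.p6), held at least 100 counts over the 22 libraries, and was neither inside a protein-coding gene nor within 1000 bp of the end of one. By that rule 3339 of 96049 peaks (3.48%) were members, at the ends of 2893 lncRNA genes. A further 702 peaks met the positions but held fewer counts. The member nearest the count limit held 100 counts and the nearest peak outside it held 99.

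ATAC-seq, which tags accessible DNA with a transposase, was used to ask what acute deletion of TERT, the catalytic subunit of telomerase, does to spermatogonia. TERT-deleted libraries numbered 3 each from MCAM-high KIT-negative, MCAM-medium KIT-negative and KIT-positive spermatogonia, and TERT-heterozygous control libraries numbered 3, 2 and 3 in that order. These cells were sorted on day 7 after tamoxifen from C57BL/6 mice of 8 to 12 weeks, and the genotype entry is TertCreER/+:Rosalsl-Tdtomato/+ for deleted and control mice alike, so only the titles and library names separate them. They do not say which Tert allele was recombined. A further 5 libraries, from TertTdtomato/+ mice of the same strain and ages with no time point given, came from later germ cells. For 4 of these 5 the title and the library name disagree on whether the cells were spermatocytes or round spermatids, so they were kept as 1 group, and all 5 library names carry the same animal label. Whether each replicate is its own mouse is not given. The p-values therefore reflect only how far these libraries vary, and that variation may be technical.

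Long noncoding RNAs are transcripts that are not translated into a conserved protein. Many are made from their own promoter, where an open, nucleosome-poor stretch marks the 5′ end, and the testis is known for transcribing an unusually large number of them, above all in meiotic and postmeiotic cells. MCAM, an adhesion molecule, is high on the most stem-like undifferentiated spermatogonia, and KIT, a receptor tyrosine kinase, marks spermatogonia that have begun to differentiate. Some lncRNA genes serve as hosts of small nucleolar RNAs or microRNAs, some of their RNAs build nuclear bodies, and most have no known role.

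Of the members, 1963 lay within 1000 bp of a 5′ end, 599 at a 3′ end only, and 777 at genes whose strand the tables used here do not give. By name, 2453 were at predicted Gm genes, 456 at RIKEN clones whose number prefixes mark testis libraries, 237 at other RIKEN clones, 122 at genes with another name, 44 at LOC genes and 27 at genes named as antisense or opposite-strand. The 158 members at several genes were classed by the gene with the lowest start coordinate alone. A peak at Gm36633 and the testis clone 1700011C11Rik is thus counted under predicted Gm genes. The members had a median width of 498 bp, against 417 bp over all peaks, and a median distance of 31907 bp to the nearest protein-coding gene. Exons, introns and UTRs were not assigned, since the gene table holds none.

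Promoter sequences below, from RefSeq (GRCm38.p6), show the range of CpG content among the named peaks. Each runs 5′ to 3′ on the gene's strand over 300 bases, with the start site inside a member peak, and capitals mark every CpG. The first pair, 4930434J06Rik (chr14:71856459-71856758, plus strand) and 4933402J10Rik (chr5:59985953-59986252, minus strand), carried the largest gains in later germ cells among the named peaks and hold 0 and 1 CpG. 
4930434J06Rik: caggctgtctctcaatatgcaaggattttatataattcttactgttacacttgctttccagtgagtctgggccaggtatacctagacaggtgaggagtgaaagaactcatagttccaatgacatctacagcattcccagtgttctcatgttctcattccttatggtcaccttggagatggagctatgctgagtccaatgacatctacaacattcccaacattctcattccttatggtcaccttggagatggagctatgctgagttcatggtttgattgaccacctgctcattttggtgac
4933402J10Rik: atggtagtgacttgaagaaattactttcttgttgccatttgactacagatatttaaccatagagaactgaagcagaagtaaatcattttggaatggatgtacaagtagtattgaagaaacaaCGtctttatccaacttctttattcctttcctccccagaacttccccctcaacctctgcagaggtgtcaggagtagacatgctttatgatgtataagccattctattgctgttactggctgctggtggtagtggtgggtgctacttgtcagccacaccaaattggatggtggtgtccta
The next pair, Chaserr (chr7:73558346-73558645, minus strand) and Snhg8 (chr3:123508287-123508586, minus strand), were more open in KIT-positive cells and hold 30 CpGs each. 
Chaserr: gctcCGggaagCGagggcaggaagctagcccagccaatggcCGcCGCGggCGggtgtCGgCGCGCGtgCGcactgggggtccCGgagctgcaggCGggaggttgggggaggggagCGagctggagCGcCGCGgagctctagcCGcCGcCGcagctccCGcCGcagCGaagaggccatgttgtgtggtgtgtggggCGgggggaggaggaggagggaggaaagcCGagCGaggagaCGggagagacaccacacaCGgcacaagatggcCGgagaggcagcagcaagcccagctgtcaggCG
Snhg8: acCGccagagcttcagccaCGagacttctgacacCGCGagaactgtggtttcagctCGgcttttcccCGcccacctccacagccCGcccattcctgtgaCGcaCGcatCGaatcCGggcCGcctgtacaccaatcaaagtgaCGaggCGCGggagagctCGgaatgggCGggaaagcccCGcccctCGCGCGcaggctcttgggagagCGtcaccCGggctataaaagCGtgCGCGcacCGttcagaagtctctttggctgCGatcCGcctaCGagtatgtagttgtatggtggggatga
1700018A04Rik (chr13:31582464-31582763, minus strand) was less open in KIT-positive cells and more open later. It holds 4 CpGs and 4 copies of the CCAAT letters counted on both strands. 
1700018A04Rik: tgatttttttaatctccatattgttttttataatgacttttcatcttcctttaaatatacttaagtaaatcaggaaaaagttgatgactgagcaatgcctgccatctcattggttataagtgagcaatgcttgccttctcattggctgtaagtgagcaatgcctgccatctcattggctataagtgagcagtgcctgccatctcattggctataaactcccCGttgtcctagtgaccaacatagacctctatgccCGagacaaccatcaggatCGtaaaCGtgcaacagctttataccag
Gm34095 (chr15:84576608-84576907, minus strand) was the member called after TERT deletion, and holds 4 CpGs. 
Gm34095: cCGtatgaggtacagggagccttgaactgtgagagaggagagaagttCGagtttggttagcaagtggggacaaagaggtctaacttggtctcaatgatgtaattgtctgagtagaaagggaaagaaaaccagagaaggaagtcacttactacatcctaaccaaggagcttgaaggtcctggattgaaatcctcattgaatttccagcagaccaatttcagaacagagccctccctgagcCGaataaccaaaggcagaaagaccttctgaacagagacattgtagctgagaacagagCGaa

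The libraries held 922085 to 3358377 counts in peaks. Levels are given as CPM, the counts scaled to a common library size, and 3 counts correspond to 0.893 to 3.25 CPM. Between 48.8% and 73.9% of nonzero counts were even numbers. That share was 49.3 to 49.9% in later germ cells, 51.7 to 70.5% in deleted KIT-positive and 50.7 to 73.9% in control KIT-positive libraries, replicate 3 being the highest of these. Its part in the results was not tested. At peaks of 4 of 5 listed round spermatid genes the summed level was 140 to 234 CPM in later germ cells, against 9.09 to 15.7 CPM in control KIT-positive cells. Peaks of all 5 listed spermatocyte genes summed to 220 to 288 CPM in later germ cells, against 136 to 198 CPM in control KIT-positive cells. Peaks of the differentiating list (4 of 5 genes) summed to 190 to 233 CPM in deleted KIT-positive and 187 to 287 CPM in control KIT-positive cells, against 94.2 to 124 CPM in deleted and 89.0 to 112 CPM in control MCAM-high cells. Peaks of the undifferentiated list (7 of 7 genes) summed to 296 to 382 CPM in deleted KIT-positive against 239 to 258 CPM in deleted MCAM-high cells, and to 252 to 424 CPM in control KIT-positive against 299.5 to 326 CPM in control MCAM-high cells. This list was thus above MCAM-high in every deleted KIT-positive library, its control ranges overlapped, and deleted MCAM-high libraries lay below control MCAM-high ones. Sertoli list peaks (4 of 5 genes) held 39.89 to 49.99 CPM in later germ cells against 73.9 to 97.1 CPM in control KIT-positive cells, Leydig list peaks (1 of 4 genes) 6.16 to 15.8 against 15.7 to 41.9 CPM, immune list peaks (1 of 4 genes) 0 to 3.96 against 1.21 to 6.99 CPM, and peritubular or endothelial list peaks (3 of 4 genes) 48.2 to 56.6 against 85.5 to 124 CPM; their part in the results was not tested.

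The share of a library's counts that fell in lncRNA-end peaks differed between the groups of cells. It was 3.17 to 3.24% in deleted MCAM-high, 3.15 to 3.30% in control MCAM-high, 3.09 to 3.27% in deleted MCAM-medium and 3.13 to 3.24% in control MCAM-medium libraries. It was 2.47 to 2.83% in deleted KIT-positive and 2.41 to 3.02% in control KIT-positive libraries, below every undifferentiated library. In the 5 later libraries it was 4.07 to 4.22% (mean 4.14 ± 0.056, SD), above every spermatogonial one. The later libraries also come from another mouse line with no time point given, and their names carry the same animal label. Stage cannot be told apart from line, tamoxifen or animal in any comparison with them. Members were chosen by counts summed over all 22 libraries, so peaks open mainly in later germ cells could enter through the 5 later ones. Of the members, 921 passed the filter on low counts only in the fit that held the later libraries. The rule thus favours a higher share there, by an amount that was not measured. Peaks at 5′ ends took 2.72 to 2.84% of counts in later germ cells against 1.55 to 1.88% in control KIT-positive cells. Peaks at genes of unknown strand took 0.884 to 0.920% in later germ cells against 0.497 to 0.638% in control KIT-positive cells. At peaks of 3′ ends only, the ranges overlapped, at 0.453 to 0.480% in later germ cells and 0.359 to 0.501% in control KIT-positive cells. Fewer cells with an open site and less opening per cell cannot be told apart in such bulk libraries.

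**Figure D1:**
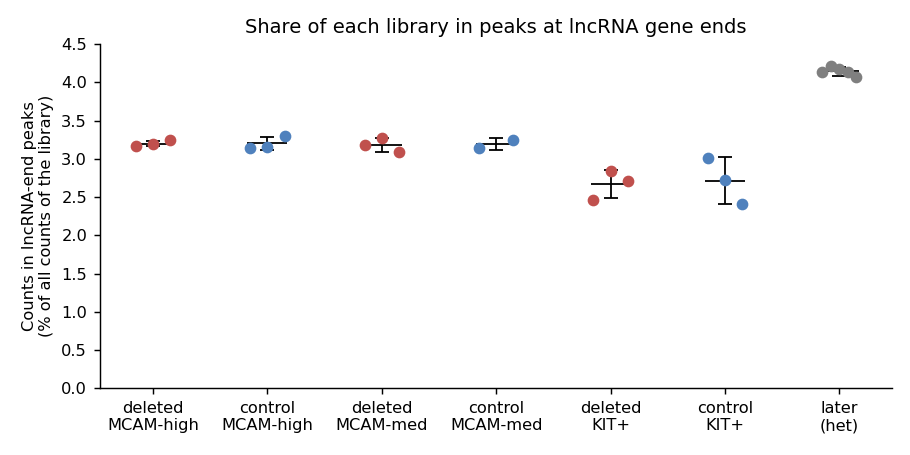
Percent of each library's peak counts that fell in the 3339 lncRNA-end peaks (y axis), by group (x axis), with 1 point per library and the mean ± SD as bars. The 5 later libraries sit at 4.07 to 4.22%, above all 17 spermatogonial libraries, and the KIT-positive libraries sit lowest. The peaks were chosen by counts summed over all libraries, the 5 later ones included, which favours a higher share in those.

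The comparison of later germ cells with control KIT-positive spermatogonia asks which lncRNA ends differ between cells at the start of differentiation and cells in meiosis or beyond. Mouse line and animal differ along with stage here. Of the 3339 members, 3138 passed the filter on low counts. At an adjusted p under 0.05 (edgeR quasi-likelihood test, adjusted over 73134 peaks), 1305 of these (41.6%) were more open and 518 (16.5%) less open in later germ cells. Over all peaks tested, 29.2% were called higher and 22.8% lower, or 52% in either direction. The groups of libraries did not overlap at 1618 of the 1823 members called (88.8%), against 84.6% of the 38026 peaks called over all. The median log2 fold change was 0.59 over the members tested, against 0.12 over all peaks tested. Both medians hold peaks that passed the filter only through the later libraries, which are set aside below. This comparison shares the control KIT-positive libraries with the one against control MCAM-high cells, so values from both are given side by side and not as an overlap. With DESeq2's size factors the median of all peaks moved to 0.31 and the members' counts to 1390 higher and 432 lower.

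A member without counts in KIT-positive cells could pass the filter only through other libraries of the fit, so a member that passed through the later ones had to be high there. There were 57 members at 0 counts in all 3 control KIT-positive libraries, and each was called. To leave such members out, the 2217 members that had also passed the filter in the fit of the 17 spermatogonial libraries were counted alone. That choice in turn favours peaks open in spermatogonia, and so a lower level later, by an amount that was not measured. Of the 2217, 540 (24.4%) were higher and 514 (23.2%) lower in later germ cells, against 14.1% higher and 30.1% lower among all 54456 peaks that passed in both fits. The median log2 fold change was -0.11 over these members, against -0.36 over all peaks that passed in both fits. The sign of -0.11 may depend on the scaling. With DESeq2's size factors the median over all 3138 members tested was 0.79, and that of the 2217 was not computed. Of the other 921 members, 765 (83.1%) were called higher. The share was 73.0% of the 18678 peaks over all that passed only with the later libraries. It was 76.1% of the 1224 autosomal protein-coding ends of at least 100 counts that passed only with them.

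Among autosomal peaks held to the same 100 counts, the share called higher in later germ cells was 41.6% at lncRNA ends, 21.1% at protein-coding ends, 28.1% inside protein-coding genes, 28.0% inside lncRNA genes only and 27.5% between genes. These shares hold peaks that passed only through the later libraries. Among peaks tested in both fits the share called higher was 24.4% at lncRNA ends, 16.7% at protein-coding ends, 12.8% inside protein-coding genes, 12.7% inside lncRNA genes only and 13.3% between genes. The share of these called lower was 23.2% at lncRNA ends, 29.8% at protein-coding ends, 34.5% inside protein-coding genes, 28.4% inside lncRNA genes only and 24.6% between genes. The classes are set side by side as shares and were not tested against each other.

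Within the members, 5′ ends were called higher at 875 of 1874 peaks tested (46.7%), and 3′ ends at 142 of 539 (26.4%). Tested in both fits, 28.1% of 1286 peaks at 5′ ends were higher and 19.98% lower, and 14.1% of 412 at 3′ ends were higher and 30.8% lower. Ends of testis RIKEN clones were called higher at 317 of 442 (71.7%) and lower at 7.01%. Their median log2 fold change was 2.33, and their median level was 15.8 CPM in later germ cells against 3.48 CPM in control KIT-positive cells. Among the 235 testis clone peaks tested in both fits, 51.1% were called higher and 13.2% lower, with a median log2 fold change of 1.1. Ends of other RIKEN clones were called higher at 16.1% of 223 and lower at 29.6%, with 11.4% higher and 32.8% lower of the 201 tested in both fits. Predicted Gm genes, the largest kind, were called higher at 39.1% of 2291, and at 22.1% of the 1627 tested in both fits. The share called higher was 46.9% for members more than 50000 bp from a protein-coding gene, 39.4% for those at 5000 to 50000 bp and 32.4% for those nearer. Among those tested in both fits it was 25.5%, 23.8% and 23.6% in the same order, so the spread over distance was small there.

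**Figure D2:**
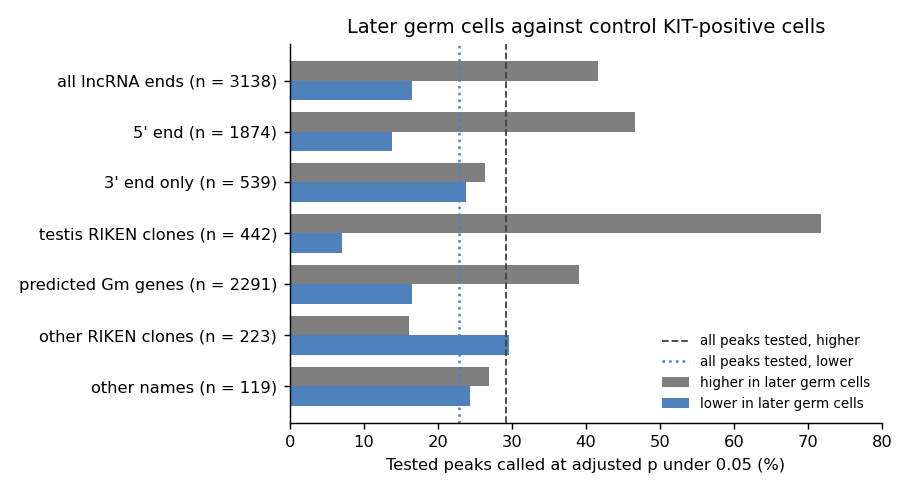
Share of tested lncRNA-end peaks (x axis, percent) called more open (grey) or less open (blue) in later germ cells than in control KIT-positive cells, by end and by kind of gene name (y axis). The dashed and dotted lines are the shares over all peaks tested, 29.2% higher and 22.8% lower, and every share includes peaks that passed the filter only through later libraries; testis RIKEN clones reach 71.7% higher, other RIKEN clones 16.1%.

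The 5′ end of 4930434J06Rik (peak chr14:71856197-71856858), a testis clone with no known role, had the largest gain among the named peaks. Its level was 57.5, 40.1, 62.7, 66.4 and 46.8 CPM in later germ cells, against 0 CPM in all 3 control KIT-positive libraries. No other spermatogonial library exceeded 6.73 CPM, the value of deleted MCAM-high replicate 2. Against a floor of 3 counts over the whole KIT-positive group it rose at least 66.5-fold (adjusted p by edgeR's test, 5.14e-14). The 5′ end of 4933402J10Rik (chr5:59985803-59986277) had 58.6, 47.4, 43.7, 55.4 and 48.6 CPM in later germ cells, against 0 CPM in the 3 control KIT-positive libraries. It was at least 63.3-fold higher (adjusted p = 3.13e-14), and the later libraries varied little among themselves. Peaks of 4930529L06Rik, 4930431P22Rik, LOC115490181, Gm35309, the pair Gm40773 and Gm32552, and the pair Gm31759 and Gm31818 were likewise at 0 counts in control KIT-positive cells. Their levels were at least 31.7-fold to 44.2-fold higher in later germ cells. If the authors' counting took both ends of a fragment, that floor is too low and these folds are too high. All peaks of this paragraph are among the 57 members at 0 counts in control KIT-positive cells, each of which was called. They were also named for their large fold changes. Their folds and p-values thus describe these peaks and are not separate support for a gain.

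Among members less open in later germ cells, the 5′ end of Gm36574 (chr4:120396511-120397297), a predicted gene, changed at high counts. It had 3.596, 2.63, 3.18, 6.84 and 4.62 CPM in later germ cells, against 83.9, 60.5 and 83.1 CPM in control KIT-positive cells. The groups lay far apart, and the level in the other spermatogonial libraries, 44.6 to 90.9 CPM, was close to that of KIT-positive cells. The log2 fold change was -4.22 ± 0.29 (SE, edgeR adjusted p = 2.24e-18). Near the 5′ end of Gm12108 (chr11:32100258-32100738) the level was 1.08, 4.604, 1.59, 1.37 and 1.16 CPM in later germ cells, against 27.2, 30.2 and 38.8 CPM in control KIT-positive cells (log2 fold change -4.10 ± 0.46, adjusted p = 9.80e-11). This peak had been 5.34 to 15.03 CPM in control MCAM-high cells, below every control KIT-positive library.

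Some of the strongest lncRNA ends also shifted in opposite ways. The 5′ end of Gm36445 (chr13:65240475-65242867) had 221 to 281 CPM, median 238, in later germ cells, against 86.2, 127 and 99.4 CPM in control KIT-positive cells. It rose by a log2 fold change of 1.19 ± 0.19 (adjusted p = 5.71e-07). The 5′ end of D130051D11Rik (chr15:85634351-85635305) had 36.3 to 56.6 CPM, median 49.7, in later germ cells, against 134, 158 and 258 CPM in control KIT-positive cells. It fell, with a log2 fold change of -2.01 ± 0.21 (adjusted p = 7.79e-12), and the groups did not overlap. The peak with the highest level among all members, at the 5′ end of LOC115490388 (chr6:3182512-3184022), stepped down from MCAM-high to KIT-positive to later germ cells. Its level was 547, 686 and 691 CPM in control MCAM-high cells, 247, 199 and 241 CPM in control KIT-positive cells and 63.6 to 106 CPM in later germ cells. Deleted libraries showed the same step, with 200, 267 and 202 CPM in KIT-positive against 506, 610 and 591 CPM in MCAM-high cells. The log2 fold change of KIT-positive over MCAM-high was -1.49 ± 0.17 in control (adjusted p = 2.75e-08) and -1.35 ± 0.17 in deleted libraries (adjusted p = 4.45e-07), and that of later over KIT-positive cells was -1.45 ± 0.17 (adjusted p = 1.45e-10).

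The step from MCAM-high to KIT-positive spermatogonia, the onset of differentiation, was measured in control libraries and again in deleted libraries, with no library shared. Of the members, 2284 passed the filter in the fit of the 17 spermatogonial libraries. In control cells 125 of them (5.47%) were more open and 154 (6.74%) less open in KIT-positive cells, against 9.64% higher and 6.11% lower over all 57289 peaks tested (15.8% in either direction). In deleted cells 131 (5.74%) were higher and 112 (4.90%) lower, against 9.39% and 4.35% over all peaks (13.7% in either direction). The libraries did not overlap at 231 of 243 members called in deleted cells (95.1%) and at 264 of 279 called in control cells (94.6%), against 96.9% and 92.1% of all peaks called in these genotypes. The median log2 fold change of the members was -0.21 in either genotype, against -0.05 over all peaks. The balance of directions followed the scaling: with total counts in place of TMM the median of all peaks was -0.22 in control and -0.28 in deleted cells, and the members called were 93 higher and 209 lower in control (30.8% higher, against 44.8%) and 81 higher and 188 lower in deleted cells (30.1% higher, against 53.9%). The deleted split was 119 higher and 132 lower with DESeq2's size factors, and 113 higher and 154 lower with only the groups compared. In control cells, 156 members were called without KIT-positive replicate 3, 169 without MCAM-high replicate 2 and 184 without MCAM-high replicate 3. In deleted cells the count was 148, 133 and 143 without MCAM-high replicates 1, 2 and 3, and 142 and 144 without KIT-positive replicates 1 and 2.

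The shares called at lncRNA ends in this step lay nearer to those of intergenic peaks than to those of protein-coding ends, a difference given as counts and not tested. In control cells the share called higher in KIT-positive cells was 5.47% at lncRNA ends, 15.6% at protein-coding ends and 5.19% between genes, and the share called lower was 6.74%, 3.53% and 7.84% in the same order. Members at 1000 to 5000 bp from a protein-coding gene were called higher at 11.3% of 266 peaks and lower at 4.51%, and those beyond 50000 bp at 3.77% and 7.91% of 796.

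The 2 genotypes gave the same direction at 1620 of the 2284 members tested (70.9%), and at 269 of the 279 called in control cells (96.4%). Of the members called higher, 70 were shared, which is 56.0% of the control list and 53.4% of the deleted list. Of those called lower, 59 were shared, which is 38.3% of the control list and 52.7% of the deleted list, and 0 were called in opposite directions. The same agreement was not computed over all peaks, so it is not shown to be particular to lncRNA ends. The difference between the genotypes in this step was tested at each peak as an interaction, and 0 members passed (edgeR; 116 at an unadjusted p under 0.05; 0% of all peaks called).

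**Figure D3:**
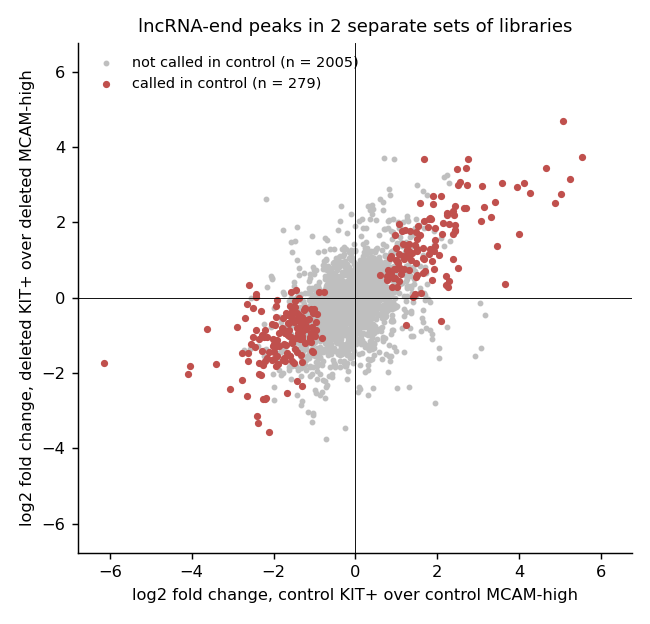
Log2 fold change of KIT-positive over MCAM-high spermatogonia at 2284 lncRNA-end peaks, in control libraries (x axis) and in deleted libraries (y axis), 1 point per peak, with the 279 peaks called in control cells in red. Of the red points, 269 lie on the same side of 0 on both axes.

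Deleted KIT-positive cells and later germ cells can be set side by side without a shared library, since the first were compared with deleted MCAM-high cells and the second with control KIT-positive cells. Of 130 members higher in deleted KIT-positive cells that were tested in both fits, 99 (76.2%) were lower and 5 higher in later germ cells, against 23.2% lower among the 2217 tested in both. These 99 were 19.3% of the 514 lower in later germ cells. Over all 54456 peaks tested in both fits, 30.1% were lower in later germ cells. The share among all peaks higher in deleted KIT-positive cells was not computed. The 76.2% is thus not shown to be particular to lncRNA ends. Of 112 members lower in deleted KIT-positive cells, 30 (26.8%) were higher and 24 (21.4%) lower in later germ cells, near the 24.4% and 23.2% of the members tested in both.

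The Chaserr 5′ end (chr7:73558195-73559016), on the promoter printed above, lies upstream of Chd2, which encodes a chromatin remodeller and which Chaserr RNA is known to restrain in mouse cells. Its level was 250, 163 and 155 CPM in deleted KIT-positive cells against 61.5, 79.4 and 70.4 CPM in deleted MCAM-high cells, and 116, 129 and 236 CPM in control KIT-positive cells against 77.3, 69.4 and 68.9 CPM in control MCAM-high cells. Every KIT-positive library was above every MCAM-high library. The log2 fold change was 1.44 ± 0.24 in deleted (adjusted p = 4.69e-05) and 1.16 ± 0.23 in control cells (adjusted p = 0.000451). In later germ cells it had 62.4 to 125 CPM, median 90.8, a log2 fold change of -0.83 ± 0.21 from control KIT-positive cells (adjusted p = 0.000811). That fall was not called without control KIT-positive replicate 3, which had the highest control level (-0.47, adjusted p = 0.0540).

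At Neat1 (chr19), whose RNA is the scaffold of nuclear paraspeckles, 1 peak at the lower-coordinate end and 1 of 2 peaks at the other end moved in opposite ways. At the lower-coordinate end (5823514 to 5824087) the level was 19.6, 31.4 and 13.6 CPM in deleted KIT-positive against 3.57, 4.04 and 1.62 CPM in deleted MCAM-high cells, and 19.4, 17.9 and 40.6 CPM in control KIT-positive against 0.716, 0.890 and 0.547 CPM in control MCAM-high cells. This peak was at most 4.04 CPM in MCAM-high cells of either genotype and rose with log2 fold changes of 2.77 ± 0.54 in deleted (adjusted p = 0.000394) and 5.03 ± 0.61 in control cells (adjusted p = 8.95e-08). It was lower again in later germ cells, at 3.95 to 5.47 CPM (log2 fold change -2.57 ± 0.44, adjusted p = 1.98e-06). At the farther of the peaks by the higher-coordinate end (5846375 to 5846978) the level was 11.2, 11.5 and 12.8 CPM in deleted KIT-positive against 45.5, 26.9 and 42.9 CPM in deleted MCAM-high cells, and 7.77, 11.2 and 3.64 CPM in control KIT-positive against 25.8, 28.04 and 44.9 CPM in control MCAM-high cells. It fell, with log2 fold changes of -1.68 ± 0.37 in deleted (adjusted p = 0.00140) and -2.21 ± 0.40 in control cells (adjusted p = 0.000104), and rose by 1.51 ± 0.38 in later germ cells (adjusted p = 0.000794). The peak nearest to that end, at 5845632, was not called at the KIT step. It had 8.39, 16.6 and 26.4 CPM in deleted KIT-positive against 16.1, 11.4 and 10.5 CPM in deleted MCAM-high cells (0.45 ± 0.50, adjusted p = 0.598), and 6.21, 12.3 and 6.06 CPM in control KIT-positive against 4.29, 8.01 and 20.8 CPM in control MCAM-high cells (-0.44 ± 0.53, adjusted p = 0.630). It rose by 2.29 ± 0.40 in later germ cells (adjusted p = 3.79e-06). The strand of Neat1 is not given in the tables used, so these ends are named by coordinate.

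Malat1 (chr19), whose RNA gathers in nuclear speckles, also had ends that differed. Its 5′ end (5803190 to 5804197) had 58.7, 74.9 and 51.3 CPM in deleted KIT-positive against 31.2, 37.7 and 24.3 CPM in deleted MCAM-high cells, a log2 fold change of 0.98 ± 0.28 (adjusted p = 0.0126). In control cells the values were 30.3, 49.3 and 57.0 CPM in KIT-positive against 36.1, 30.3 and 31.2 CPM in MCAM-high libraries, which overlap, and the difference was not called (0.48 ± 0.27, adjusted p = 0.235). The call in deleted cells was lost without deleted KIT-positive replicate 2 (adjusted p = 0.0671) or deleted MCAM-high replicate 3 (adjusted p = 0.0841). Later germ cells had 69.9 to 102 CPM at the 5′ end, median 96.0, and the rise of 0.92 ± 0.24 was called (adjusted p = 0.000989). The 3′ end (5794763 to 5795305) had 3.11, 0 and 1.21 CPM in control KIT-positive against 3.94, 11.6 and 14.8 CPM in control MCAM-high cells, and 10.3 to 17.3 CPM in later germ cells. Its fall in control cells (-2.62 ± 0.70, adjusted p = 0.00761) was not called without control KIT-positive replicate 3 (adjusted p = 0.0537), and its rise in later germ cells was 2.94 ± 0.64 (adjusted p = 0.000114).

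Dancr, first described as a lncRNA that keeps human epidermal progenitors undifferentiated, had a strong 5′ peak (chr5:74092602-74093528) with no call, at log2 fold changes of 0.11 ± 0.25 in control KIT-positive over MCAM-high cells and 0.33 ± 0.21 in later over KIT-positive cells. A weaker peak just past its 3′ end (chr5:74094659-74094959) did change. Its level was 28.9, 32.0 and 20.8 CPM in deleted KIT-positive against 5.35, 5.38 and 3.24 CPM in deleted MCAM-high cells, and 27.96, 26.9 and 21.8 CPM in control KIT-positive against 17.2, 1.34 and 5.47 CPM in control MCAM-high cells. The rise was 2.53 ± 0.54 in deleted (adjusted p = 0.000943) and 1.59 ± 0.47 in control cells (adjusted p = 0.0146), and the control call was lost without MCAM-high replicate 2 (adjusted p = 0.118) or replicate 3 (adjusted p = 0.0719). In later germ cells the peak fell to 0.360 to 4.05 CPM (log2 fold change -3.93 ± 0.56, adjusted p = 3.89e-08).

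**Figure D4:**
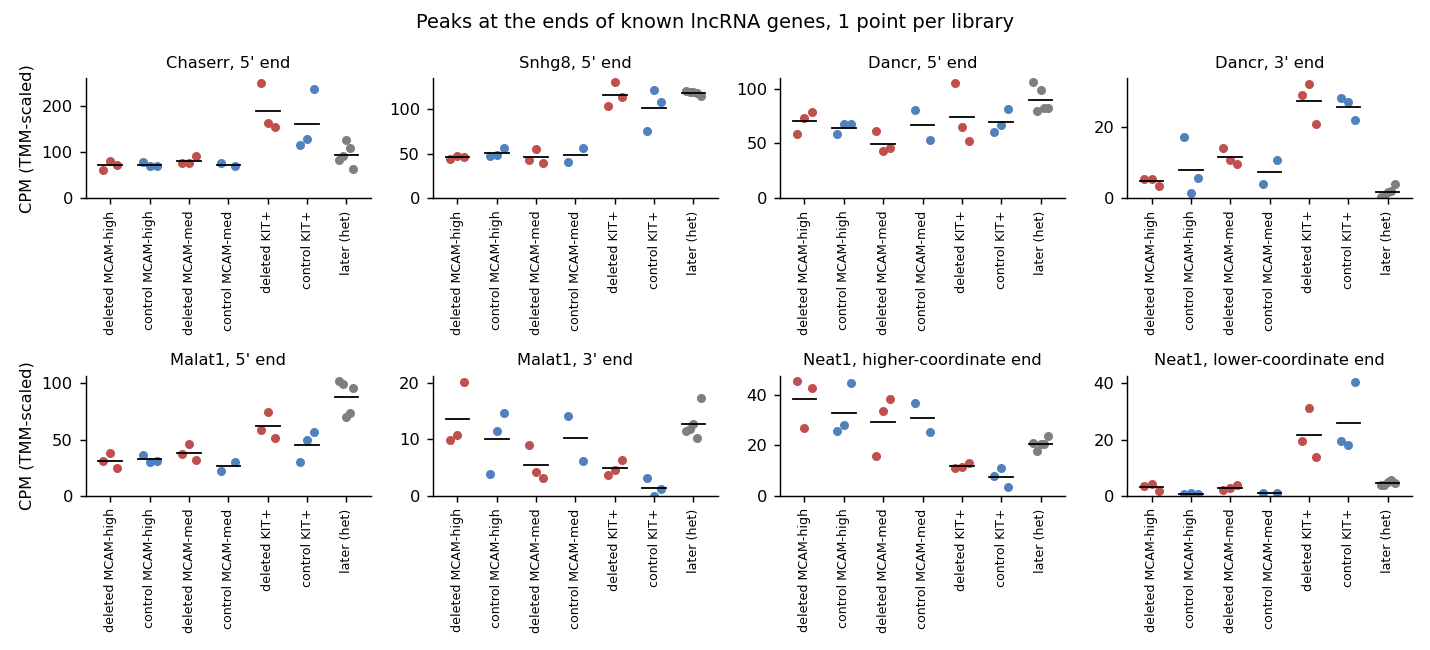
Level in TMM-scaled CPM (y axes) at 8 peaks of 5 known lncRNA genes, by group (x axes), 1 point per library with a line at the group mean; deleted libraries are red, control blue and later grey. The lower-coordinate end of Neat1 and the 3′ end of Dancr have 17.9 CPM or more in every control KIT-positive library and 5.47 CPM or less in every later library; the 5846375 peak at the higher-coordinate end of Neat1 has 11.2 CPM or less in control KIT-positive cells and 17.8 CPM or more in later germ cells.

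Small nucleolar RNAs guide the modification of ribosomal RNA, and of 20 listed host genes 12 had a member peak, all 12 tested. Called higher in KIT-positive cells were 3 in deleted and 2 in control cells, with 0 lower, and 4 were higher and 1 lower in later germ cells. Over all peaks the shares called higher were 9.39%, 9.64% and 29.2% in these comparisons, so the count higher in later germ cells lay near the background. The shares called lower were 4.35%, 6.11% and 22.8% in the same order. With 12 peaks, 0 lower at the KIT step also lay near the background. The list's median log2 fold change was 0.57 in deleted and 0.29 in control KIT-positive over MCAM-high cells, and 0.23 in later over KIT-positive cells. Snhg8 (chr3:123508080-123509133) had 104, 131 and 114 CPM in deleted KIT-positive against 44.6, 47.8 and 46.1 CPM in deleted MCAM-high cells, and 76.1, 122 and 109 CPM in control KIT-positive against 48.0, 49.0 and 56.9 CPM in control MCAM-high cells. The groups did not overlap in either genotype, and the rises were 1.33 ± 0.24 (adjusted p = 0.000115) and 0.99 ± 0.23 (adjusted p = 0.00200) on the log2 scale. In later germ cells Snhg8 stayed at 115 to 121 CPM, a log2 fold change of 0.18 ± 0.20 from control KIT-positive cells that was not called (adjusted p = 0.462). Snhg5 (chr9:88522688-88523596) rose by 0.93 ± 0.30 in deleted (adjusted p = 0.0278) and 1.04 ± 0.29 in control KIT-positive cells (adjusted p = 0.00946), the control call being lost without MCAM-high replicate 2 (adjusted p = 0.0576) and the deleted one with total counts (adjusted p = 0.102) and without MCAM-high replicate 1 or 3 or KIT-positive replicate 1 or 2 (adjusted p of 0.0772 to 0.0949). Epb41l4aos was called in deleted KIT-positive cells (1.055 ± 0.34, adjusted p = 0.0278), but not with total counts (adjusted p = 0.0880) or without any MCAM-high replicate or KIT-positive replicate 2 or 3 (adjusted p of 0.0565 to 0.114). It was 52.0 to 68.0 CPM in later germ cells against 28.7, 26.9 and 32.1 CPM in control KIT-positive cells, a rise of 1.02 ± 0.25 (adjusted p = 0.000636). Snhg20 rose by 1.65 ± 0.38 (adjusted p = 0.000253), Snhg17 by 0.89 ± 0.29 (adjusted p = 0.00821) and Snhg3 by 0.90 ± 0.34 (adjusted p = 0.0243) in later germ cells, while Snhg11 fell (-1.21 ± 0.34, adjusted p = 0.00229). Without control KIT-positive replicate 3 the adjusted p was 0.0762 for Snhg17, 0.0592 for Snhg3 and 0.0584 for Snhg11, and Snhg3 was also not called without control KIT-positive replicate 1 or 2 or later replicate 1 or 2.

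Among microRNA hosts, 5 of 16 listed genes had 8 member peaks, all tested. Called in KIT-positive cells were 0 in deleted and 1 higher in control libraries, and in later germ cells 2 were higher and 1 lower. With 9.64% of all peaks called higher in control KIT-positive cells, and 29.2% higher and 22.8% lower in later germ cells, these counts lay near the background. Of the 2, a second Mir22hg peak (75462224) was called at an adjusted p of 0.0405 and not with DESeq2 (adjusted p = 0.0503) or without any of control KIT-positive replicates 1 and 3 and later replicates 1 and 3 (adjusted p of 0.0743 to 0.339). The main 5′ end of Mir22hg, the host of miR-22 (chr11:75461129-75461929), had 102, 110 and 214 CPM in control KIT-positive against 66.2, 93.0 and 75.5 CPM in control MCAM-high cells (0.87 ± 0.24, adjusted p = 0.00858). In later germ cells it had 67.1 to 89.2 CPM (-0.88 ± 0.22, adjusted p = 0.000596), and without control KIT-positive replicate 3 neither difference was called (adjusted p = 0.235 and 0.0552). A Mir9-3hg 5′ peak, at the host of miR-9, had 19.7 to 29.5 CPM in later germ cells against 1.55, 7.84 and 7.88 CPM in control KIT-positive cells, and rose by 2.01 ± 0.45 (adjusted p = 0.000170). In all, 30 of the lncRNA genes with a member peak hold 41 microRNA hairpins of the RefSeq table.

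The list of nuclear, chromatin and growth lncRNAs had members at 13 of 26 genes, 25 peaks in all. In KIT-positive against MCAM-high cells, 6 were higher and 2 lower in deleted and 5 higher and 2 lower in control libraries, of 21 tested, where 9.39% of all peaks were called higher and 4.35% lower in deleted and 9.64% and 6.11% in control libraries. In later against KIT-positive cells 7 were higher and 8 lower of 24 tested, with a median log2 fold change of 0.17, against 29.2% of all peaks higher and 22.8% lower, so the count higher lay near the background. Several of these peaks share a gene. Besides the ends described, a 5′ peak of Dleu2, the host of miR-15a and miR-16-1 (chr14:61681985-61682963), rose in deleted KIT-positive cells (1.046 ± 0.28, adjusted p = 0.00946) and fell in later germ cells (-1.14 ± 0.26, adjusted p = 0.000196). The deleted call was lost without MCAM-high replicate 1 (adjusted p = 0.0504) or KIT-positive replicate 3 (adjusted p = 0.0644). Its rise in control cells (0.84 ± 0.27, adjusted p = 0.0280) was not called with total counts (adjusted p = 0.0754) or without control MCAM-high replicate 2, KIT-positive replicate 2 or KIT-positive replicate 3 (adjusted p of 0.0954 to 0.162). Norad, whose RNA binds Pumilio proteins, had 7.23 to 22.7 CPM in later germ cells against 3.88, 4.48 and 2.42 CPM in control KIT-positive cells, a rise of 1.92 ± 0.54 (adjusted p = 0.00250). Lockd, next to Cdkn1b, fell in later germ cells (-1.69 ± 0.39, adjusted p = 0.000302). Pvt1, a neighbour of Myc, rose in later germ cells (0.99 ± 0.36, adjusted p = 0.0195), not without control KIT-positive replicate 1 (adjusted p = 0.143) or 2 (adjusted p = 0.0527). Hotair, known from the Hox clusters, had 14.4 to 23.0 CPM in later germ cells against 14.8, 7.84 and 21.2 CPM in control KIT-positive cells, a difference of 0.26 ± 0.36 that was not called. Of 10 imprinted lncRNA genes listed, H19 and Gm26812 had a member each and 0 of the 2 were called in any comparison. H19 had 7.94 to 15.03 CPM in later germ cells against 13.2, 6.72 and 9.09 CPM in control KIT-positive cells.

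Clones and predicted genes with no known role also changed at the KIT step. G930009F23Rik (chr15:38456491-38456977) had 12.1, 22.4 and 11.2 CPM in deleted KIT-positive against 2.68, 0 and 0.809 CPM in deleted MCAM-high cells, and 18.6, 17.9 and 15.2 CPM in control KIT-positive against 0, 0.890 and 0 CPM in control MCAM-high cells. The rises were 3.74 ± 0.79 (adjusted p = 0.000903) and 5.53 ± 0.84 (adjusted p = 8.01e-06), with no overlap, and the level fell in later germ cells to 0.684 to 5.203 CPM (-2.90 ± 0.61, adjusted p = 7.28e-05). Gm32235 (chr10:117559969-117560552) had 26.1, 28.8 and 22.4 CPM in deleted KIT-positive against 0, 2.69 and 4.05 CPM in deleted MCAM-high cells, and rose by 3.44 ± 0.63 there (adjusted p = 0.000152) and by 4.66 ± 0.68 in control cells (adjusted p = 4.01e-06). In the other direction, Gm40840 (chr12:14283030-14283613) had 3.73, 2.56 and 4.00 CPM in deleted KIT-positive against 9.81, 10.8 and 15.4 CPM in deleted MCAM-high cells, and 1.55, 2.24 and 1.21 CPM in control KIT-positive against 25.4, 31.2 and 25.2 CPM in control MCAM-high cells. It fell with log2 fold changes of -1.80 ± 0.51 (adjusted p = 0.0122) and -4.05 ± 0.53 (adjusted p = 5.09e-07), and the deleted call was lost without KIT-positive replicate 2 (adjusted p = 0.0733) or MCAM-high replicate 3 (adjusted p = 0.0642).

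1700018A04Rik, the CCAAT-rich promoter printed above, differed in both steps. It had 0, 2.56 and 1.60 CPM in deleted KIT-positive against 5.35, 13.5 and 5.67 CPM in deleted MCAM-high cells, and 2.33, 0 and 2.42 CPM in control KIT-positive against 12.9, 18.7 and 14.8 CPM in control MCAM-high cells. The falls were -2.41 ± 0.71 (adjusted p = 0.0172) and -3.07 ± 0.65 (adjusted p = 0.000758), and the deleted call was lost without KIT-positive replicate 1 (adjusted p = 0.0829) or MCAM-high replicate 2 (adjusted p = 0.154). In later germ cells it had 18.5 to 26.2 CPM, a rise of 3.54 ± 0.52 from control KIT-positive cells (adjusted p = 8.63e-08).

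Separate peaks at the 5′ and the 3′ end were present for 162 genes, of median length 8076 bp. The 5′ peak was the stronger in 101 of them (62.3%). In later germ cells against control KIT-positive cells both ends rose in 30 genes and both fell in 4, while the 5′ end rose and the 3′ end fell in 15 and the reverse held in 5. The 5′ end alone was called in 51 genes, the 3′ end alone in 24 and neither in 33. Gm12108 was among the 5 in which the 5′ end fell and the 3′ end rose. In control KIT-positive against MCAM-high cells both ends rose in 1 gene and both fell in 0. The 5′ end rose and the 3′ end fell at 1810008I18Rik, and the reverse held at 4930433N12Rik. At the 3′ end of 4930433N12Rik (chr9:3189941-3190510) the level was 18.6, 28.8 and 33.6 CPM in deleted KIT-positive against 6.24, 4.71 and 0.809 CPM in deleted MCAM-high cells, and 44.3, 33.6 and 24.2 CPM in control KIT-positive against 3.58, 0.890 and 0 CPM in control MCAM-high cells. It rose by 2.77 ± 0.55 (adjusted p = 0.000443) and 4.26 ± 0.56 (adjusted p = 6.00e-07).

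Promoters were compared by CpG content at the 1131 members with a RefSeq start site inside the peak, which lay a median of 99.5 bp from the peak centre. The CpG ratio is the number of CpGs observed over that expected from the C and G content of the 300 bases. Its median was 0.229 for members more open in later germ cells (n = 591) and 0.485 for those less open (n = 131). It was 0.635 for members more open in control KIT-positive than MCAM-high cells (n = 38), 0.295 for those less open (n = 64) and 0.385 for those tested in both fits and called in none (n = 307). Over the whole promoter table the median was 0.245 for lncRNA genes and 0.567 for protein-coding genes. These groups share the control KIT-positive libraries. The 591 members more open later include peaks that passed the filter only through the later libraries. Those were 259 at ratios under 0.3, 63 from 0.3 to 0.6 and 7 at 0.6 and over. The median without them was not computed. Of promoters with a ratio under 0.3, 68.2% of 516 tested were called higher and 6.78% lower in later germ cells. For ratios from 0.3 to 0.6 the shares were 45.0% and 10.9% of 393, and for 0.6 and over 32.6% and 27.9% of 190. Those shares include promoters that passed only through the later libraries, 267, 70 and 8 in that order. Among promoters tested in both fits, 37.3% of 249 under 0.3 were called higher and 14.1% lower, 35.3% and 13.3% of 323 from 0.3 to 0.6, and 30.2% and 29.1% of 182 at 0.6 and over. CpG-poor promoters had low levels before: the median was 16.1 CPM in later germ cells and 3.11 CPM in control KIT-positive cells for ratios under 0.3, and 17.5 against 15.6 CPM for ratios of 0.6 and over. At the KIT step in control cells 3.98% were called higher and 12.7% lower at ratios under 0.3, 1.85% and 8% at 0.3 to 0.6, and 11.9% and 3.24% at 0.6 and over.

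**Figure D5:**
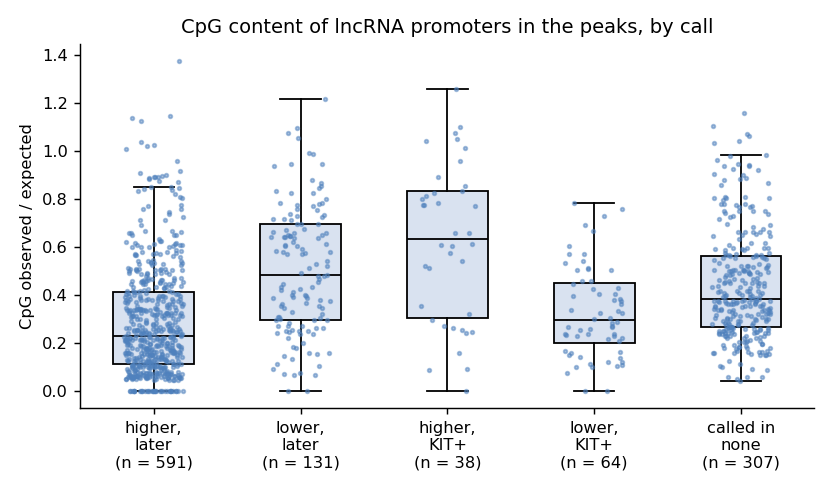
Ratio of observed to expected CpGs (y axis) in the 300-base promoters of lncRNA genes whose start site lies in a member peak, by call (x axis), 1 point per promoter. Promoters called higher in later germ cells include those that passed the filter only through the later libraries. Boxes span the quartiles with a line at the median and whiskers to 1.5 times the box; medians are 0.229 and 0.485 for peaks higher and lower in later germ cells, and 0.635 and 0.295 for peaks higher and lower in control KIT-positive cells.

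Short motifs were searched on both strands of the same promoters, and matches of different motifs could overlap. TGACGTCA, the cAMP response element, was in 2.71% of promoters more open in later germ cells and 0% of those less open, against 1.68% of the 1131 members with a start site, 0.975% of all lncRNA promoters and 1.79% of all promoters in the table. AACTGCC, the core of the motif of the meiotic activator A-MYB, was in 7.78% of promoters more open in later germ cells and 3.05% of those less open, and in 7.81% of those less open in control KIT-positive cells, against 6.54% of the 1131 members, 4.44% of all lncRNA promoters and 4.12% of all promoters. CCAAT was in 43.1% of promoters more open and 43.5% of those less open in later germ cells, against 41.0% of the 1131 members, 35.97% of all lncRNA promoters and 37.4% of all promoters. GGGCGG, the GC box, was in 13.5% of promoters more open and 45.0% of those less open in later germ cells, and in 57.9% of those more open in control KIT-positive cells, against 22.02% of the 1131 members, 16.3% of all lncRNA promoters and 35.7% of all promoters. TATAAA was in 15.4% of promoters more open in later germ cells, against 13% of the 1131 members and 15.5% of all lncRNA promoters. Since the members more open later are 591 of the 1131, the members' shares overlap with theirs. The 591 include promoters that passed the filter only through the later libraries, and motif shares without those were not computed. A match describes these letters only and is not a measured binding site.

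MCAM-medium cells stood close to MCAM-high cells. Between these control groups 0 of the 2284 members tested were called by edgeR and 0 by DESeq2 (37 at an unadjusted p under 0.05), as were 0% of all peaks. In control KIT-positive against MCAM-medium cells 71 members were higher (3.11%) and 97 lower (4.25%), against 5.7% and 3.62% of all peaks (9.32% in either direction). With total counts the split was 47 higher and 150 lower, and with only the groups compared in the fit 89 members were called. Only 2 MCAM-medium control libraries were present, and 59 and 105 members were called without replicate 1 and replicate 2 of them, and 96 without control KIT-positive replicate 3.

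TERT deletion left lncRNA ends with 1 call. Averaged over the 3 populations, 1 of 2284 members tested was higher and 0 lower in deleted cells (0.0438%), against 0.124% of all peaks tested, 0.103% of them higher and 0.0209% lower. Leaving out control MCAM-high replicate 1 gave 3 calls, and leaving out deleted MCAM-medium replicate 2, MCAM-medium control replicate 1 or control KIT-positive replicate 2 or 3 gave 2. At an unadjusted p under 0.05 there were 133 members (5.82%), against 5.53% of all peaks. Within a population edgeR called 0 members in MCAM-high (134 at an unadjusted p under 0.05; 0.0489% of all peaks called), 0 in MCAM-medium (76; 0.00873%) and 0 for KIT-positive libraries (104; 0.00349%, of which 0.00175% higher and 0.00175% lower), and DESeq2 also called 0 in each. The median log2 fold change of the members was -0.01 in the mean of the populations, as over all peaks.

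The 1 member called was the 5′ end of Gm34095 (chr15:84576365-84576889), a predicted gene with no known role 18542 bp from Rtl6. Its level was 8.92, 12.8 and 11.3 CPM in deleted against 1.43, 3.56 and 1.09 CPM in control MCAM-high cells. In MCAM-medium cells it was 19.8, 11.4 and 10.2 CPM in deleted against 0.947 and 1.68 CPM in control libraries, and in KIT-positive cells 18.6, 28.8 and 20.8 CPM in deleted against 6.99, 0 and 4.85 CPM in control libraries. Each deleted library was above every control library of its population. The mean log2 fold change was 2.70 ± 0.36 (edgeR adjusted p = 5.01e-06), and within populations it was 2.37 ± 0.58 for MCAM-high (adjusted p = 0.146), 3.34 ± 0.73 for MCAM-medium (0.104) and 2.38 ± 0.55 for KIT-positive libraries (0.390), so no population passed alone. In later heterozygous germ cells it was 0 to 12.5 CPM, a range that reaches into that of the deleted MCAM-high libraries. The next smallest p-values in the mean did not pass: Gm28453 had 1.03 ± 0.24 (adjusted p = 0.0667), Gm44478 -1.31 ± 0.32 (0.109), 2700054A10Rik 1.51 ± 0.40 (0.174) and Gm34755 -0.72 ± 0.19 (0.179).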

How the data were processed

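The measurements are whole-number counts per peak for 22 libraries in a single matrix that the authors deposited without normalization, each peak given by chromosome, start and end per the file headers. The submitters' processing notes name FastQC, Bowtie2, SAMtools and Picard, and list the builds mm10, GRCm38 and hg19 with no role for any of them. How peaks were called and merged, how reads were counted, and whether Tn5 shifts or duplicate filters were applied is not given in the sources used here. Duplicates, or counting both ends of a fragment, would widen the spread of low counts and raise even counts. Starts were used as deposited, their base (0 or 1) being unknown.

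Members and gene lists were chosen with earlier results of these data known. Gene ends came from a RefSeq gene table, strands and promoter sequences from RefSeq promoter windows (GRCm38.p6). A gene end is 5′ or 3′ by the strand of the promoter table.

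Counts were tested in R 4.3.3 with edgeR 4.0.16 (TMM, filterByExpr by group, quasi-likelihood F tests, Benjamini-Hochberg adjustment over all peaks, threshold 0.05). The 17 spermatogonial libraries made 1 fit (57289 peaks, 11 residual degrees of freedom), and the 13 heterozygous libraries another (73134 peaks, 9 residual degrees of freedom). The test was also run on simulated counts, with the outcome not given here. What size of change it could find after deletion is thus not shown. CPM were TMM-scaled over all 22 libraries. A standard error is the log2 fold change over the square root of F. Folds against 0 use a floor of 3 counts over the group, scaled to total counts, and cover counting error only. Total counts per library are given above.

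Named peaks were, for each comparison, up to 8 higher and 8 lower by fold change among those called without overlap of libraries; those called after deletion or with the 5 smallest p-values; the 8 highest in mean CPM; and those of the lists. Clones named in the comparison of both ends were chosen after their values were seen. Alternatives were DESeq2 1.42.0, other scalings (size factors, total counts, loess offsets with limma 3.58.1), no filter, autosomes only, a window of 500 bp, the compared groups alone, replicate blocks, sums per source number, and leaving out each library. Library names of spermatogonia carry 1 source number across populations. No 2 libraries held identical counts.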

Additional observations from a re-analysis of the deposited data

Results flagged for a closer look

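Among 112 sets of 5 later libraries at named peaks, 2 held a library that stood apart from the other 4, where chance alone is expected to flag about 1 in 20. Near the 5′ end of Gm12108, later replicate 2 had 4.604 CPM and the others 1.08 to 1.59 CPM, against 27.2 to 38.8 CPM in control KIT-positive cells. Near the 3′ end of 1600010M07Rik, later replicate 4 had 1.37 CPM and the others 0 CPM, against 8.49 to 15.5 CPM in control KIT-positive cells. In that library 3 counts correspond to 1.81 CPM, and with the other 4 at 0 any count would be flagged. The rate of 1 in 20 holds for continuous values and not at such a floor. Both peaks stayed called lower in later germ cells without that library.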

How the results depend on the processing

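At the named peaks, the only ones whose direction was followed, no called difference turned its direction under any alternative run. The balance of calls did turn for deleted KIT-positive over MCAM-high cells. It went from 131 higher and 112 lower to 119 higher and 132 lower with DESeq2's size factors. The counts of members called after deletion were small everywhere: the mean gave 2 without the filter on low counts, 2 with DESeq2, 3 with libraries summed per source number and 1 to 3 when a library was left out, and MCAM-high alone gave 2 without the filter and 2 with only its own groups in the fit. Gm34095 kept its call in the mean throughout, with log2 fold changes of 2.54 to 2.90 and adjusted p of 2.92e-06 to 0.000171 when 1 library was left out. When 1 library was left out, later germ cells against KIT-positive cells gave 1572 to 1790 members called, KIT-positive against MCAM-high cells 133 to 192 in deleted and 156 to 287 in control libraries, and KIT-positive against MCAM-medium control cells 59 to 185; the remaining comparisons gave 0 throughout. KIT-positive against MCAM-medium cells gave 89 members with only the groups compared. The cause of these moves was not tested, but each fit without a library has fewer samples. A group left with 1 library was assumed to vary like the others.

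Libraries with the same source number did not deviate together (correlations of -0.419 to 0.0531 over peaks), so the numbers were not taken as pairing the samples. These are deviations from the means of very small groups, so they cannot show that the libraries were unpaired. A replicate block was fitted by source number within each genotype. It gave 175 members called in deleted and 204 in control KIT-positive against MCAM-high cells. In control KIT-positive against MCAM-medium cells it gave 76. For the deletion mean the block used the replicate number alone, which groups control with deleted libraries although their library names differ. Gm34095 kept its call with that block (log2 fold change 2.72, edgeR adjusted p = 1.94e-05). A block by source was not used for Gm34095, because each source belongs to deleted or to control cells alone. With libraries summed per source number Gm34095 kept its call (log2 fold change 2.67, edgeR adjusted p = 1.19e-06). Neither block could be fitted for later germ cells, whose names share no number with the others. The mean of the 3 populations already used every spermatogonial library, so it has no fit on fewer groups. The depth of 922085 counts in the shallowest library, a control KIT-positive one, limits low peaks, where 3 counts equal 3.25 CPM.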
